A study of Mus musculus with 6 samples.

Results

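The BCL2 family genes examined here encode the proteins that decide at the mitochondrion whether a cell lives or dies. The 10 members were the rows of the deposited count table with the symbols Bcl2, Bcl2l1, Mcl1, Bcl2l2, Bak1, Bok, Bid, Bcl2l11, Bmf and Bad, out of 24091 genes in the table. All 10 were found and all 10 had enough counts to be tested. RNA had been sequenced from hematopoietic stem cells, the bone marrow cells that renew the blood, sorted from wild-type mice (labelled wt) by surface markers: they carried Sca-1, c-Kit and CD150 and lacked CD48 and the markers of mature lineages. The aged group held 3 libraries (aged 1 to aged 3) from mice of 20 months, and the young group 3 libraries (young 4 to young 6) from mice of 2 months, with no treatment named. The labels speak of 4 pooled aged mice and 30 pooled young mice and leave open whether that holds for each library. A p here thus weighs a difference against the spread of libraries, part or all of which may be technical. The series as titled concerns miR-126 and the ageing of the marrow.

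The family has 3 roles. Survival proteins (BCL2, BCL-XL from Bcl2l1, MCL1 and BCL-W from Bcl2l2) hold the other classes in check. Pore-forming proteins (BAK from Bak1, and BOK) can permeabilise the outer mitochondrial membrane and release cytochrome c, which starts the caspases. BH3-only proteins (BID, BIM from Bcl2l11, BMF and BAD) sense stress and either block the survival proteins or activate the pore formers. In mice, blood stem cells are known to depend on Mcl1, and forced expression of Bcl2 is known to enlarge the stem cell pool. Much of the control of these proteins lies in splicing, phosphorylation, cleavage and protein turnover, which gene counts do not show.

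No member passed the test for a difference between aged and young stem cells. With edgeR's quasi-likelihood method, 0 of the 10 had an adjusted p under 0.05, against 5.76% of the 13413 genes tested (4.26% higher and 1.5% lower in aged cells). Before adjustment 0 had a p under 0.05, against 25.1%. With an offset for GC content and gene length, 3 members had such a p, all lower in aged cells (Mcl1, Bcl2l1 and Bid). The share of all tested genes with such a p under the offset was not computed, so this count is no result about the members. None passed after adjustment, where 10.6% of all tested genes did. DESeq2 and limma-voom also called 0 members, against 16.3% and 6.09% of all tested genes. Limma-voom with quality weights called 1, Bok, lower in aged cells, against 30.5% of all tested genes. The median log2 fold change of the members was -0.023, against 0.040 over all tested genes, and the single values ran from -0.43 for Mcl1 to 0.69 for Bmf. The members' median depended on the setting: it was -0.29 with that offset, against -0.080 over all tested genes, and 0.14 with no scaling, against 0.20. The groups stood wholly apart for 2 members, Mcl1 and Bid, both lower in every aged library than in every young one; groups stood apart in this way for 36.6% of the tested genes, and for 17.6% with the aged libraries below. A p that misses the threshold does not show equal levels, so each value is given with the 95% interval of its difference; 7 of the 10 intervals lay within 2-fold either way. Levels are given in CPM, counts scaled to a fixed library total after TMM correction.

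**Figure D1:**
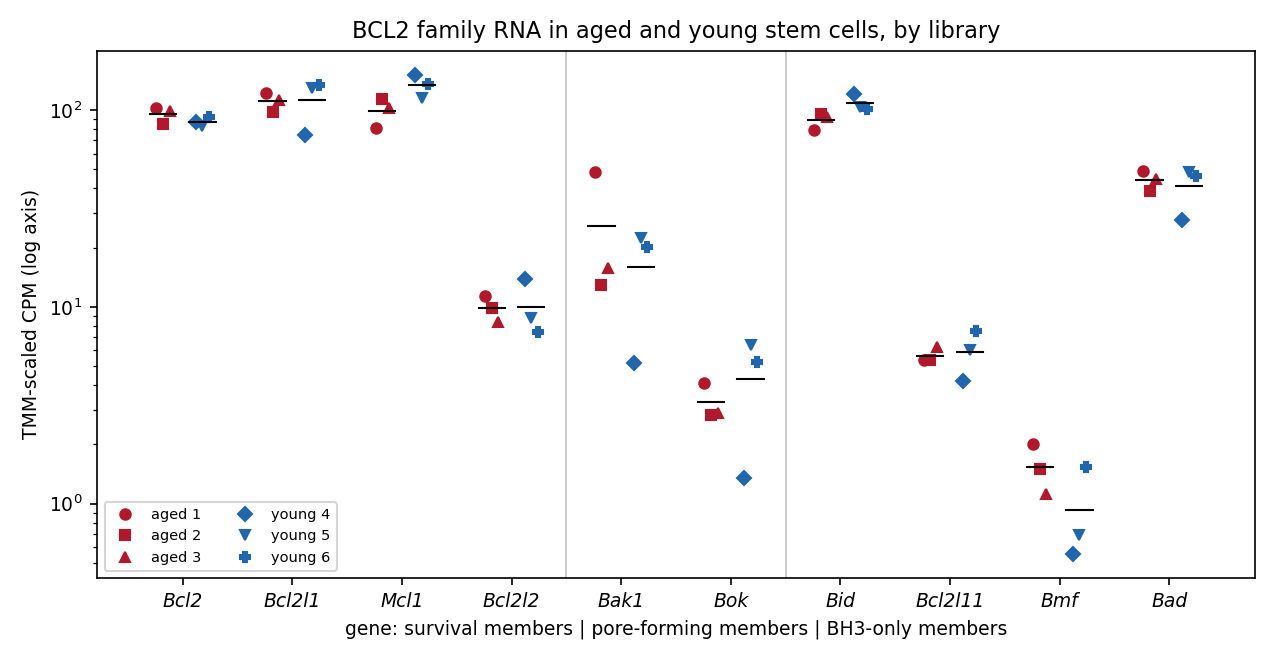
TMM-scaled CPM (log axis) of the 10 members in each library, by role; black bars are group means and n = 3 libraries per group. Aged and young points overlap for 8 members, and young 4 (diamond) lies lowest for Bcl2l1, Bak1, Bok, Bcl2l11, Bmf and Bad.

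Libraries held 16452829 to 21918658 counts. Young 4 stood apart: its TMM factor was 0.765 against 1.04 to 1.08 in the other 5 libraries, and Actb took 4.06% of its counts against 0.555% to 1.36%. Of the members, 6 were lower in young 4 than in both other young libraries, which was so for 44.1% of all tested genes. The summed level of 12 markers of cycling cells was 1095, 990 and 509 CPM in aged 1, 2 and 3, against 3385, 2298 and 2123 CPM in young 4, 5 and 6, and 5 of the 12 were called lower in aged cells. Of the genes of the sorted surface markers, Kit had 16696 to 22259 counts in aged and 4028 to 19797 in young libraries, Ly6a (Sca-1) 1655 to 3684 and 585 to 890, and Slamf1 (CD150) 1698 to 2597 and 784 to 1511. Cd48, whose protein was sorted against, had 11 to 53 counts in aged and 182 to 196 in young libraries. Of 8 stem cell and progenitor genes that include these, Ly6a, Procr and Fgd5 were called higher and Cd48, Flt3 and Cd34 lower in aged cells. Their summed level was 1355 to 1609 CPM in aged and 748 to 1325 CPM in young libraries. Of 6 megakaryocyte and platelet markers 1 was called lower. The T cell genes Cd3e and Cd3g had at most 1 count in any library and Cd8a none, and 4 B cell markers summed to 0.928 to 1.60 CPM in aged and 0.159 to 0.307 CPM in young libraries. Summed levels of 6 macrophage markers were 32.7 to 35.4 CPM in aged and 36.6 to 66.4 CPM in young libraries, of 5 erythroid markers 68.3 to 79.8 and 41.1 to 121 CPM, and of 6 granulocyte markers 4.17 to 13.2 and 7.06 to 11.2 CPM. The 5 T and NK cell markers summed to 150 to 226 CPM in aged and 104 to 193 CPM in young libraries, a sum made almost wholly of 2 genes called in opposite directions. Klrb1c was called higher, with 2264 to 4495 counts in aged and 100 to 182 in young libraries, and Nkg7 lower, with 377 to 953 and 1984 to 2432. The 4 endothelial markers summed to 142 to 155 and 109 to 118 CPM. The part of cycling cells or of these cell types in the members' values was not tested. In bulk RNA, fewer cells of a type and less RNA per cell cannot be told apart.

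Mcl1 was the member with the smallest p. It encodes a short-lived survival protein (mm10 chromosome 3, 95658721 to 95663178, plus strand). Mcl1 stood at 81.0, 114 and 102 CPM in aged 1, 2 and 3, against 151, 114 and 135 CPM in young 4, 5 and 6. Aged 2, the highest aged library, and young 5, the lowest young one, were nearly level, at 113.5 and 114.3 CPM. The means were 98.9 ± 16.5 CPM for aged and 133 ± 18.3 CPM for young cells (SD, n = 3 each). Aged minus young, the log2 difference was -0.43 ± 0.19 (SE), with a 95% interval of -0.88 to 0.020, a p of 0.0583 before adjustment and of 0.215 after it (edgeR). The interval runs from 1.84-fold lower in aged cells to about level. The sign was the same in 16 of 16 alternatives, with adjusted p-values from 0.1096 to 0.442 and none under 0.05. All alternatives reuse the same libraries. With every aged value below every young one, leaving libraries out could hardly turn the sign, so its constancy adds no support. Leaving out young 4 gave -0.35 (adjusted p = 0.253).

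Bid encodes a BH3-only protein that is cut by caspase-8 and so links death receptors to the mitochondrion (chromosome 6, 120893119 to 120916820, minus strand). Its level was 78.6, 95.6 and 91.9 CPM in aged 1, 2 and 3, against 120, 103 and 101 CPM in young 4, 5 and 6. Every aged library was below every young one, with means of 88.7 ± 8.96 CPM for aged and 108 ± 10.2 CPM for young cells (SD, n = 3 each). The log2 difference was -0.29 ± 0.16 (SE), with a 95% interval of -0.66 to 0.089 (edgeR adjusted p = 0.298). Here too the sign held in 16 of 16 alternatives, with adjusted p-values from 0.157 to 0.672. As for Mcl1, groups that do not overlap made a turn of sign unlikely beforehand.

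The promoters of Mcl1 and Bid are shown because these 2 members had the smallest p and were the only ones whose aged and young values did not overlap. Each runs from 250 bases before to 50 after the gene's start, read 5′ to 3′ on the gene's strand (RefSeq, GRCm38.p6). Capitals mark matches to GGGCGG (a GC box) and CCGGAA (an ETS-type core) on either strand.
Mcl1 promoter, chr3:95658471-95658770, plus strand: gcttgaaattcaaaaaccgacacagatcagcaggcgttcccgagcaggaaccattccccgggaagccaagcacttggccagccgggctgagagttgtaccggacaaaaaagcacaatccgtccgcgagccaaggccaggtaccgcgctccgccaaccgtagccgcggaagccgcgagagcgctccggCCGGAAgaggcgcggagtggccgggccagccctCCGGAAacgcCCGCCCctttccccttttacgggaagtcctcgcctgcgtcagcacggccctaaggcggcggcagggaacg
Bid promoter, chr6:120916775-120917074, minus strand: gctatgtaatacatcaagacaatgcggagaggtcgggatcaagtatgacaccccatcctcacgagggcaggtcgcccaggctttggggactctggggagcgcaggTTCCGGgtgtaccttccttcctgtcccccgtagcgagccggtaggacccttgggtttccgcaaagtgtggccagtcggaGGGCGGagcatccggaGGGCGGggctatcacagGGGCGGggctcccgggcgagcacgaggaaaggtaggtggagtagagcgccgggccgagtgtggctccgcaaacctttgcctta
The Mcl1 window held 1 GC box and 2 ETS-type matches, and the Bid window 3 GC boxes and 1 ETS-type match, none of them overlapping. Of 32851 mouse promoters of the same length, 35.7% held GGGCGG and 14.9% held CCGGAA, so both motifs are common. GC content was 65.7% in the Mcl1 window and 63.3% in the Bid window, against a median of 52.7% over all promoters. Neither window held a CRE palindrome (TGACGTCA, in 1.79% of all promoters). The FOXO-type motif GTAAACA, in 3.65%, was in neither. Matches are descriptions of these letters and say nothing of what binds there.

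Of the other survival genes, Bcl2 was the steadiest member. Bcl2, the founding member of the family (chromosome 1, 106538176 to 106714290, minus strand), stood at 102, 84.7 and 98.3 CPM in aged 1, 2 and 3, against 86.8, 83.3 and 91.7 CPM in young 4, 5 and 6. The groups overlapped, and the highest library had 1.23 times the level of the lowest. It had a log2 fold change of 0.12 ± 0.15 (SE), with a 95% interval of -0.23 to 0.48 (edgeR adjusted p = 0.615). Bcl2 was the only member whose interval lay within 1.5-fold either way, and its within-group SD of 0.11 on the log2 scale was at the 7.23 percentile of all tested genes, whose median was 0.34.

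Bcl2l1 encodes BCL-XL, known for its part in platelet and red cell survival (chromosome 2, 152758732 to 152831728, minus strand). Bcl2l1 stood at 121, 97.8 and 112 CPM in aged 1, 2 and 3, against 74.4, 129 and 133 CPM in young 4, 5 and 6. Young 4 lay below every aged library and young 5 and 6 above every one, and the sign of the difference changed with which library was left out. The log2 fold change was -0.028 ± 0.25 (SE; 95% interval -0.61 to 0.55, edgeR adjusted p = 0.950), and -0.28 ± 0.12 without young 4 (adjusted p = 0.212). It was 0.080 without young 5, 0.11 without young 6 and 0.022 without aged 2. The end of the gene's interval overlaps that of Cox4i2 on the opposite strand over 6306 bases, and the library kit does not mark strand; Cox4i2 had 105 to 201 counts per library, against 936 to 3043 for Bcl2l1.

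Bcl2l2, which encodes BCL-W (chromosome 14, 54883425 to 54888234, plus strand), was counted 169 to 238 times per library, at 11.4, 9.86 and 8.36 CPM in aged 1, 2 and 3, against 13.9, 8.77 and 7.41 CPM in young 4, 5 and 6. Young 4 was the highest library of all and the groups overlapped. Its log2 fold change was -0.017 ± 0.29 (SE; 95% interval -0.71 to 0.67, edgeR adjusted p = 0.976). The value was 0.27 without young 4 and 0.091 without aged 3. The whole interval of Bcl2l2 lies inside that given for Snord58b on the same strand, which had 2 to 8 counts per library. Its effect on Bcl2l2 reads was not examined.

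**Figure D2:**
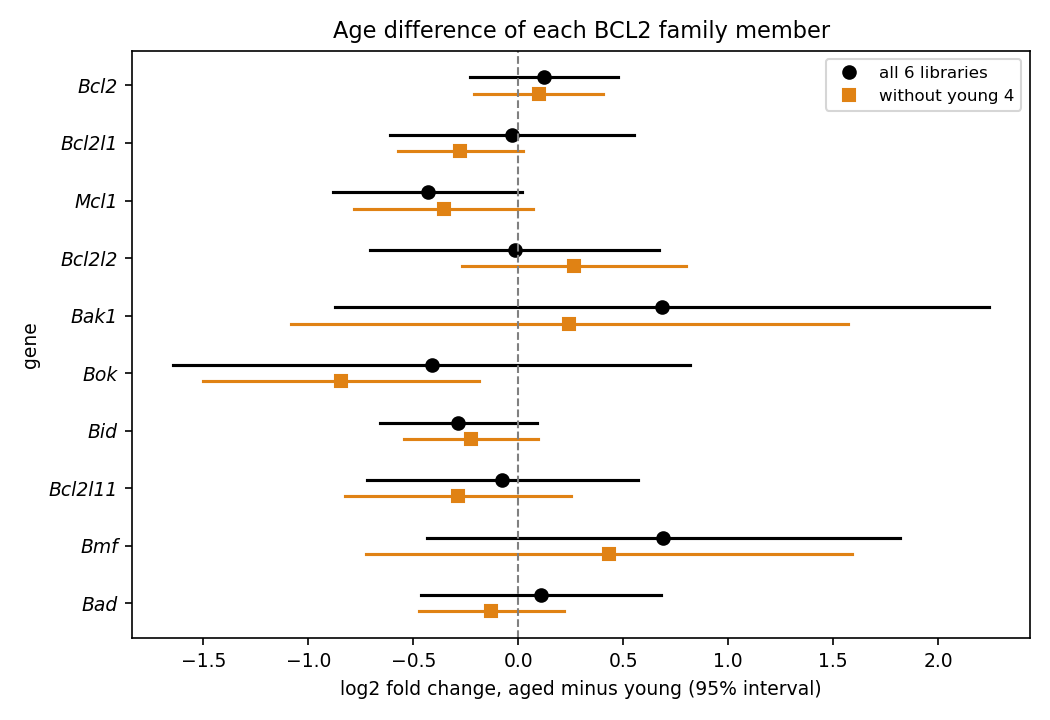
Log2 fold change of each member, aged minus young, with its 95% interval from edgeR's quasi-likelihood fit, for all 6 libraries (black circles) and without young 4 (orange squares). Every interval with all 6 libraries includes 0; without young 4 that of Bok does not, though its adjusted p is 0.109.

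The pore-forming members had the largest within-group spread of the 10. Bak1 encodes BAK, which sits in the outer mitochondrial membrane (chromosome 17, 27019812 to 27028626, minus strand). Bak1 stood at 48.1, 12.8 and 15.8 CPM in aged 1, 2 and 3, against 5.17, 22.3 and 20.1 CPM in young 4, 5 and 6. Aged 1 was the highest and young 4 the lowest library, 9.32-fold apart, while the other 4 libraries lay between 12.8 and 22.3 CPM. Aged minus young, the log2 difference of 0.68 ± 0.66 (SE) had a 95% interval of -0.87 to 2.24 (edgeR adjusted p = 0.524). It was -0.16 without aged 1 and 0.24 without young 4. The spread of Bak1 was at the 97.9 percentile of all tested genes. In aged 1 the summed level of 6 megakaryocyte and platelet markers was 1249 CPM, against 409 and 390 CPM in aged 2 and 3 and 731 to 1183 CPM in young libraries; its part in the level of Bak1 was not tested. The whole interval of Bak1 lies inside those the table gives for Zbtb9 and Ggnbp1 on the opposite strand. Bak1 reads may be affected by this, but overlap of exons was not examined. Zbtb9 stood at 42.5, 30.0 and 36.1 CPM in aged 1, 2 and 3 and at 17.5, 33.7 and 32.8 CPM in young 4, 5 and 6.

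Bok encodes a relative of BAK that is known to be kept low by proteasomal breakdown (chromosome 1, 93685575 to 93695770, plus strand). Bok stood at 4.12, 2.84 and 2.88 CPM in aged 1, 2 and 3, against 1.35, 6.38 and 5.22 CPM in young 4, 5 and 6. All aged libraries lay below young 5 and 6 and above young 4. The log2 difference was -0.41 ± 0.52 (SE; 95% interval -1.64 to 0.82, edgeR adjusted p = 0.630). Without young 4 it was -0.84 ± 0.27, with a 95% interval of -1.5003 to -0.19, an unadjusted p of 0.0194 and an adjusted p of 0.109. Without young 5 it was -0.035 (adjusted p = 0.974). Limma-voom with quality weights gave -0.93 (adjusted p = 0.0340), in a setting that called 30.5% of all tested genes.

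Bad encodes a BH3-only protein that growth factor signals silence by phosphorylation (chromosome 19, 6941861 to 6951905, plus strand). Bad stood at 49.1, 38.6 and 44.4 CPM in aged 1, 2 and 3, against 27.7, 48.6 and 46.2 CPM in young 4, 5 and 6. Apart from young 4 all libraries lay between 38.6 and 49.1 CPM, and the groups overlapped. The log2 fold change was 0.11 ± 0.24 (SE; 95% interval -0.46 to 0.68, edgeR adjusted p = 0.797) and -0.13 without young 4. Its first 590 bases overlap Gpr137 on the opposite strand, which had 25 to 256 counts per library.

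Bcl2l11 and Bmf had the lowest levels per length. Bcl2l11 encodes BIM, a BH3-only protein that in mice limits the number of blood cells (chromosome 2, 128126038 to 128162547, plus strand). Bcl2l11 stood at 5.37, 5.37 and 6.22 CPM in aged 1, 2 and 3, against 4.21, 6.03 and 7.54 CPM in young 4, 5 and 6, from 53 to 172 counts per library. The aged libraries lay inside the range of the young ones, and the log2 fold change was -0.075 ± 0.28 (SE; 95% interval -0.72 to 0.57, edgeR adjusted p = 0.874), with 0.13 without young 6. Bmf, which encodes a BH3-only protein linked to the cytoskeleton (chromosome 2, 118528757 to 118549678, minus strand), stood at 2.01, 1.496 and 1.11 CPM in aged 1, 2 and 3, against 0.557, 0.698 and 1.53 CPM in young 4, 5 and 6. Young 6 lay above aged 2 and aged 3, so the groups overlapped. Its log2 fold change was 0.69 ± 0.48 (SE; 95% interval -0.44 to 1.82, edgeR adjusted p = 0.386), and 1.27 without young 6. It rested on 24 to 42 counts per aged library and 7, 14 and 35 counts in young 4, 5 and 6. Both genes lie inside the interval of 121913 kb that the table gives for Mir684-1, which had 115 to 216 counts per library. The effect of this overlap on their reads was not examined.

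Levels of different genes can be compared only per length, here as CPM per kb of the gene length in the table. On that scale Bid was the highest member in both groups, at 47.1 ± 4.75 CPM per kb in aged and 57.4 ± 5.43 CPM per kb in young cells (SD, n = 3 each). Bad, Mcl1 and Bcl2l1 followed in aged cells at 29.1 ± 3.49, 28.4 ± 4.74 and 23.9 ± 2.55 CPM per kb, and neighbours among these 3 lay within their SDs. In young cells Mcl1 came next after Bid, at 38.3 ± 5.26 CPM per kb. Bad followed at 27.0 ± 7.53 and Bcl2l1 at 24.4 ± 7.15 CPM per kb, again within their SDs. These SDs are between libraries, and within every single library, aged or young, Bad stood above Bcl2l1. Bcl2 was at 12.9 ± 1.26 CPM per kb in aged and 11.9 ± 0.577 CPM per kb in young cells, with Bak1 beside it at 12.7 ± 9.72 and 7.87 ± 4.62 CPM per kb. Mean levels of Bcl2l2 and Bok lay between 2.11 and 2.78 CPM per kb in both groups and did not differ beyond their SDs. Bcl2l2 was above Bok in every aged library and in young 4, and below it in young 5 and young 6. Bcl2l11 was at 0.729 ± 0.0635 CPM per kb in aged and 0.764 ± 0.215 CPM per kb in young cells, and Bmf, the lowest, at 0.320 ± 0.0937 and 0.193 ± 0.1097 CPM per kb. Bcl2l11 has 8 transcripts in the GENCODE M21 annotation and Bcl2l1 has 9, and the table gives 1 length and 1 count per gene.

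**Figure D3:**
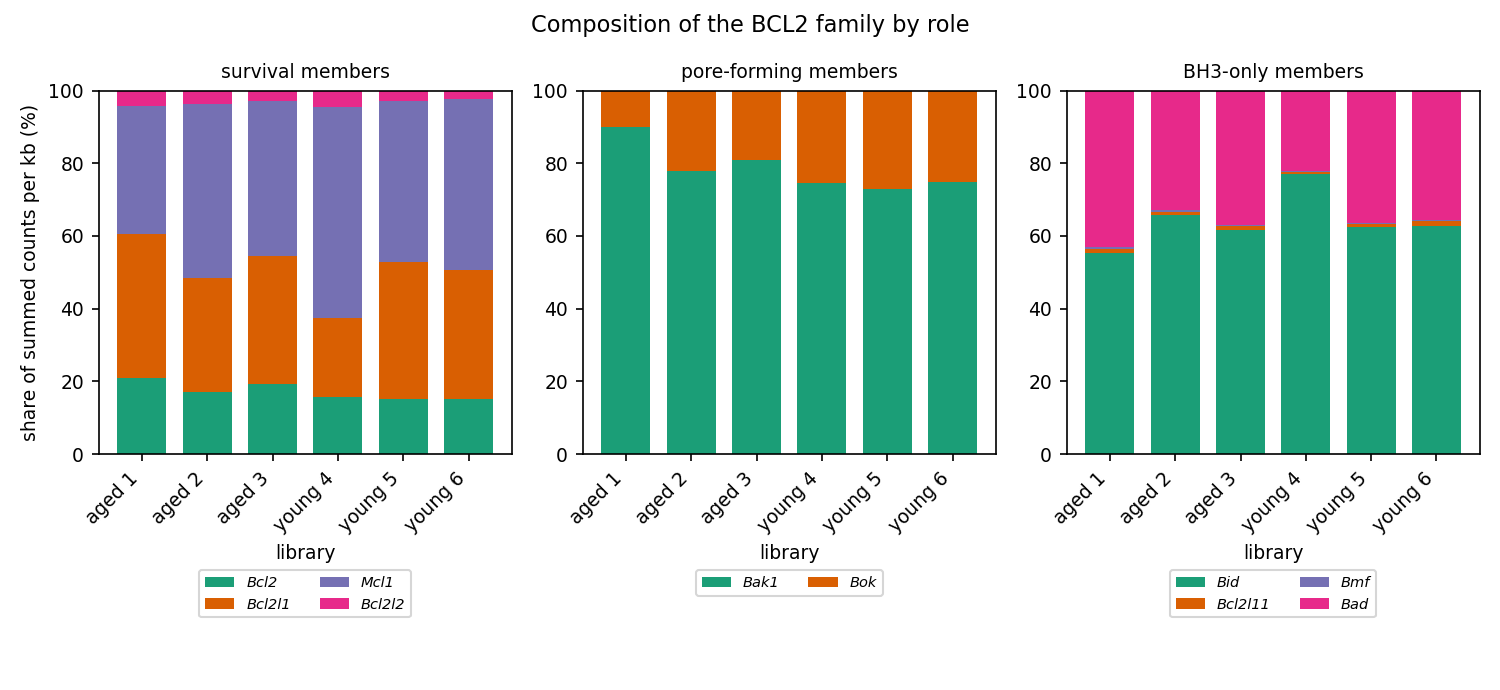
Share of each member in the summed counts per kb of its role group, in percent, for each library. The share of Bcl2 among survival members is 17.0% to 21.0% in aged and 15.2% to 15.8% in young libraries, and that of Bak1 among pore-forming members 77.7% to 90.0% and 72.9% to 74.8%. Bax, a pore former outside the members, is not included.

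Shares within a library do not depend on how libraries are scaled to each other. Among the 4 survival genes, Bcl2 took 21.0%, 17.0% and 19.4% of the counts per kb in aged 1, 2 and 3, against 15.8%, 15.2% and 15.2% in young 4, 5 and 6. Every aged library was above every young one, by 3.71 percentage points between the means, and by 2.77 to 4.77 points with any single library left out. With groups that do not overlap, leaving out a library could not turn this sign, so the range adds no support. Shares within a role add up to a fixed total, and the mean share of Mcl1 differed by -7.90 points, aged minus young. The CPM of Bcl2 itself overlapped between the groups. Shares of other genes were not examined, but groups stood apart in CPM for 36.6% of all tested genes. Mcl1 took the largest mean share, 41.9% ± 6.53 in aged and 49.8% ± 7.26 in young cells (SD, n = 3 each), and these groups overlapped. In aged 1 Bcl2l1 took 39.7% and Mcl1 35.1%, the only library in which Mcl1 did not lead. Of the 2 pore-forming members, Bak1 took 90.0%, 77.7% and 80.9% in aged 1, 2 and 3, against 74.7%, 72.9% and 74.8% in young 4, 5 and 6, with Bok making up the rest. Here too no aged library reached into the young range, but the shares of Bak1 and Bok are the same value seen from both sides. Neither gene passed the test on its own, and the reads of Bak1 may be affected by the genes that overlap it. The young 4 value rests on 65 counts of Bak1 and 17 of Bok. Bax, a pore former outside the members, is left out of these shares, at 65.3 to 71.8 CPM per kb in aged and 72.5 to 81.7 CPM per kb in young libraries. Among the BH3-only genes Bid took 55.4% to 65.7% in aged and 62.4% to 77.0% in young libraries, and Bcl2l11 and Bmf together stayed small, with at most 1.14% for Bcl2l11 and 0.556% for Bmf. These shares are descriptions with no test.

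Summed over roles, survival members stood at 66.3, 67.8 and 69.0 CPM per kb in aged 1, 2 and 3, against 74.7, 74.4 and 82.0 CPM per kb in young 4, 5 and 6. BH3-only members stood at 75.2, 77.2 and 79.1 CPM per kb in aged, against 82.6, 87.6 and 85.6 CPM per kb in young libraries. Both sums were lower in every aged library on this scaling, as were Mcl1 and Bid, which are large parts of them. Of all single genes tested, 17.6% were lower in every aged library too, so this is no result about the roles. The ratio of these sums, survival over BH3-only, was 0.881, 0.878 and 0.872 in aged libraries, against 0.905, 0.849 and 0.958 in young ones, so the aged values lay inside the young range. That depends on Bid, the largest part of the BH3-only sum. With Bid left out the ratio was 1.98, 2.56 and 2.27 in aged 1, 2 and 3, against 3.94, 2.26 and 2.58 in young 4, 5 and 6. Aged 1 then lay below every young library. Pore-forming members summed to 26.5, 8.20 and 9.69 CPM per kb in aged, against 3.43, 15.2 and 13.3 CPM per kb in young libraries. This sum leaves out Bax, a pore former outside the members with a higher level than both. Bax stood at 70.8, 65.3 and 71.8 CPM per kb in aged 1, 2 and 3, against 72.5, 81.7 and 75.2 CPM per kb in young 4, 5 and 6. The sum is thus no measure of all pore-former RNA.

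Genes with the most similar pattern were sought for Mcl1 and Bid by Pearson's r of log2 CPM over the 6 libraries among 10402 genes with at least 5 CPM in every library of a group. The closest to Mcl1 were E130307A14Rik (r = 0.998), Taf1, which encodes a subunit of the transcription factor TFIID (0.992), and the splicing factor gene Prpf38b (0.991). Taf1 stood at 70.8, 85.9 and 78.2 CPM in aged 1, 2 and 3, against 96.9, 85.4 and 91.3 CPM in young 4, 5 and 6. The closest to Bid were Gas2 (0.997), Arid1a, which encodes a chromatin remodelling subunit (0.997), and Cep78, a centrosome gene (0.996). Arid1a stood at 144, 186 and 181 CPM in aged, against 244, 203 and 200 CPM in young libraries. With 6 points that share their libraries, depth and the place of young 4, values this high are a description only.

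MiR-126, the microRNA in the series title, silences targets that pair with its seed. The mature sequence (RefSeq, GRCm38.p6, chr2:26591402-26591423, plus strand) is shown with its seed, bases 2 to 8, in capitals.
mmu-miR-126a-3p: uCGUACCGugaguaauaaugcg
The matching site CGGTACG was looked for in the GENCODE M21 transcripts of each gene, in the sense direction and over their whole length. It was in 0 of the 10 members, against 1.53% of 23509 genes of the table that had a transcript there. At that share, finding none in 10 genes is no result about the members.

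Other genes of the mitochondrial death pathway, taken from 5 lists, showed no call either. Of the 51 tested among 58 listed genes, 0 were called by edgeR, against 5.76% of all tested genes. Before adjustment, 4 had a p under 0.05 and were higher (against 13.9% of all tested genes) and 6 lower (against 11.1%) in aged cells. Their median log2 fold change was -0.14, against 0.040 over all tested genes. DESeq2 called 2 higher and 3 lower, among 16.3% of all genes it tested, and limma-voom 0 higher and 1 lower, among 6.09%. The outermost values were those of Pim2 and Birc5.

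Among the other family genes, 9 of 16 were tested and 1 had an unadjusted p under 0.05, against 25.1% of all tested genes. This was Bcl2l14, at 5.18, 4.799 and 5.52 CPM in aged and 2.15, 4.04 and 2.94 CPM in young libraries (adjusted p = 0.172). Bcl2l12 was at 37.0, 45.3 and 39.5 CPM in aged and 61.3, 47.4 and 51.2 CPM in young libraries (adjusted p = 0.211). Bax, the pore former that works beside Bak1, was singled out after its values were seen: it stood at 94.4, 87.1 and 95.8 CPM in aged, against 96.8, 109 and 100 CPM in young libraries. Every aged value of Bax was just below every young one, with a log2 fold change of -0.14 ± 0.14 (SE; edgeR adjusted p = 0.538) that became 0.015 with no scaling. Bbc3, which encodes the p53-driven BH3-only protein PUMA and was also chosen after its values were seen, was low, at 3.74, 2.68 and 3.11 CPM in aged and 1.51, 3.19 and 6.14 CPM in young libraries (adjusted p = 0.805), and its log2 fold change of -0.20 was 0.41 without young 6. Counts of the Bcl2a1 genes, which are near copies of each other, may be split between them, and these are not described.

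Downstream of the pore, 0 of 9 genes of the apoptosome and caspase list were called by edgeR, against 5.76% of all tested genes. At an unadjusted p under 0.05, 2 were lower, against 11.1% of all tested genes. Cycs encodes cytochrome c, which carries electrons in respiration and is released through the pore in apoptosis. Cycs stood at 72.3, 87.0 and 57.2 CPM in aged 1, 2 and 3, against 376, 129 and 120 CPM in young 4, 5 and 6. All aged libraries were below all young ones, and young 4 was far above the rest. Aged minus young, the log2 difference was -1.53 ± 0.46 (SE; edgeR adjusted p = 0.101) and -0.81 without young 4 (adjusted p = 0.0527). DESeq2 gave it an adjusted p of 0.0119 and limma-voom one of 0.119. With any single library other than young 4 left out, edgeR gave adjusted p-values from 0.0979 to 0.319.

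Of the 7 genes of IAPs (inhibitors of caspases) and their antagonists, 0 were called by edgeR, against 5.76% of all tested genes. Birc5 alone had an unadjusted p under 0.05, against 25.1% of all tested genes. Birc5 encodes survivin, which also works in mitosis. It stood at 66.2, 65.5 and 22.01 CPM in aged 1, 2 and 3, against 278, 161 and 147 CPM in young 4, 5 and 6, the same order of libraries within each group as for the summed cycling markers, whose part in it was not tested. The log2 fold change of Birc5 was -1.93 ± 0.46 (SE, edgeR adjusted p = 0.0574) and DESeq2 gave an adjusted p of 0.000726. Limma-voom called it lower too (adjusted p = 0.04996). With single libraries left out, edgeR gave adjusted p-values from 0.0725 to 0.114. Birc6 was at 112, 252 and 211 CPM in aged and 647, 176 and 183 CPM in young libraries (adjusted p = 0.389); its log2 fold change of -0.81 was 0.074 without young 4.

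In the death receptor branch, 0 of 8 genes were called, against 5.76% of all tested genes. Against 13.9% of all tested genes, 1 was higher at an unadjusted p under 0.05. That was Tnfrsf1a, a receptor gene for TNF, at 68.7, 35.8 and 52.0 CPM in aged and 21.7, 35.7 and 32.6 CPM in young libraries (log2 fold change 0.80 ± 0.29, adjusted p = 0.155). Fadd, which encodes the adaptor of caspase-8, was at 35.9, 42.6 and 37.7 CPM in aged and 113, 43.2 and 45.1 CPM in young libraries (adjusted p = 0.242), with -0.79 in all libraries and -0.21 without young 4.

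Among 18 regulators of the members, 0 were called, while 2 were higher and 3 lower at an unadjusted p under 0.05. Pim2 encodes a kinase known to phosphorylate BAD. Pim2 stood at 168, 70.9 and 144 CPM in aged 1, 2 and 3, against 8.27, 38.0 and 31.8 CPM in young 4, 5 and 6, with no overlap. Its log2 fold change was 2.29 ± 0.57 (SE), the largest among the lists (edgeR adjusted p = 0.0655). It was 1.84 without young 4 (adjusted p = 0.0372), and DESeq2 gave an adjusted p of 0.000954. With any other single library left out, edgeR gave adjusted p-values from 0.101 to 0.197, and limma-voom on all libraries gave 0.0574. Bag1, which encodes a BCL2-binding cochaperone, was at 22.2, 33.1 and 27.5 CPM in aged and 80.8, 44.5 and 41.2 CPM in young libraries (log2 fold change -1.01 ± 0.30, adjusted p = 0.0990), and -0.66 without young 4.

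**Figure D4:**
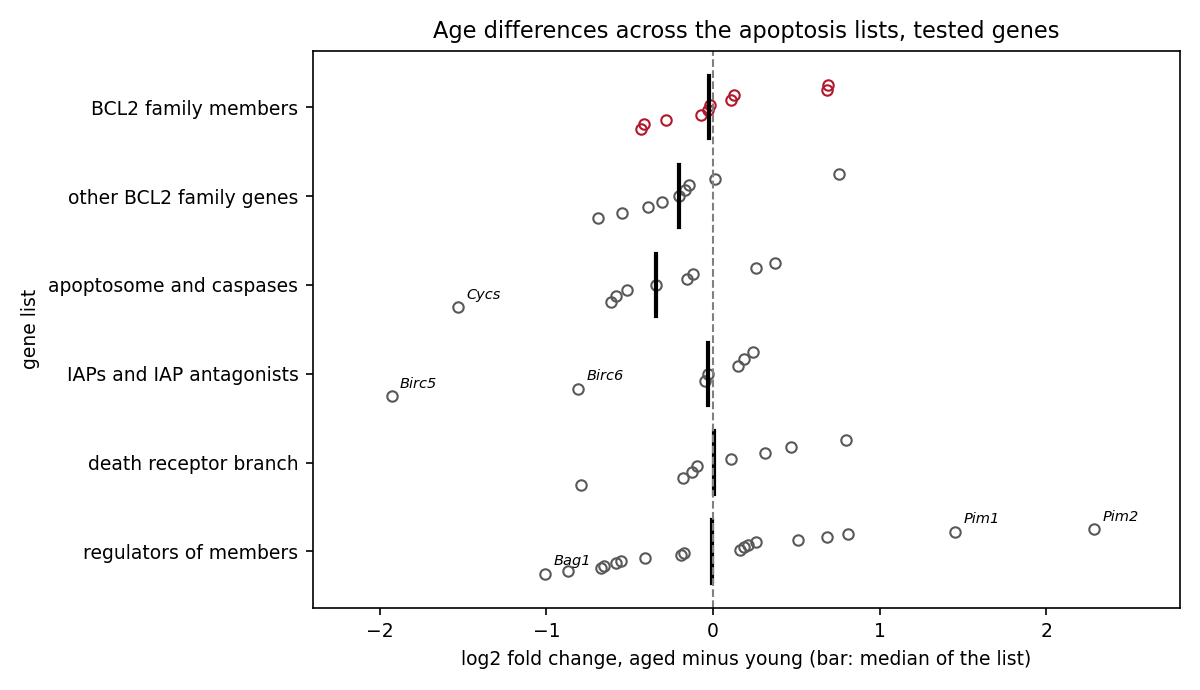
Log2 fold change, aged minus young, of each tested gene (circles) in the BCL2 family and in 5 lists of the death pathway, with the median of each list as a bar. The members lie between -0.43 and 0.69, while Birc5 at -1.93 and Pim2 at 2.29 are the outermost listed genes.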

How the data were processed

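RNA of sorted stem cells had been made into SMART-Seq v4 libraries, which do not mark strand, and sequenced as single reads of 51 cycles, per the labels' protocols. The submitters' processing notes name Trimmomatic, STAR 2.6.0, HTSeq 0.11.1, edgeR and mm10, with no roles. Which annotation was used, and how reads were assigned, is not stated there. What the authors deposited was 1 table of raw read counts, unscaled, with gene lengths in kb. Per the file headers, columns matched the 6 library names, and 0 were left unused.

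The test was edgeR's quasi-likelihood F-test (version 4.0.16, R 4.3.3, after filterByExpr and TMM) over all 6 libraries with age as the only term, and Benjamini-Hochberg adjustment over 13413 genes holding 99.9% of the counts, at 0.05. Log2 fold changes are aged minus young. Standard errors were derived from the F statistic, and 95% intervals from its degrees of freedom. CPM are TMM-scaled, with no pseudocount. The script was tested on simulated data.

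Alternatives were 4 changes of scaling (median-ratio, upper-quartile, none, or an offset for GC content and gene length, with splines of 4 degrees of freedom), the filter dropped or raised to 5 CPM in 3 libraries, DESeq2 1.42.0, limma-voom (limma 3.58.1) with and without quality weights, each library left out, and both young 4 and aged 2 left out. Named genes were all members, from each other list the called genes or the 2 with the smallest p, and those of most similar pattern to 2 members, with genes that overlap a member. Of these, 1 is not reported here. Bax, Bbc3 and single marker genes are named outside this rule, after their values were seen. The members and lists were chosen with earlier results of these data known.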

Additional observations from a re-analysis of the deposited data

How the results depend on the processing

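No paired analysis was run, because the labels link no aged library to a young one. Of 158 member values under 16 alternatives, 1 was called, Bok lower under limma-voom with quality weights (count of members called lower 1), and 23 changed sign. Signs turned with no scaling for Bcl2l1 (0.091), Bcl2l2 (0.20), Bcl2l11 (0.053) and Bax (0.015); with upper-quartile scaling for Bcl2l1 (0.029) and Bcl2l2 (0.063); at 5 CPM or more for Bcl2l1 (0.0078) and Bcl2l2 (0.024); with limma-voom for Bcl2l1 (0.015) and Bcl2l2 (0.050); with quality weights for Bcl2l2 (0.15), Bak1 (-0.31), Bad (-0.13) and Birc6 (0.17); with the GC and length offset for Bad (-0.14); and with young 4 and aged 2 both left out for Bcl2l2 (0.26) and Bad (-0.052). With single libraries left out, log2 fold changes ranged from -0.28 to 0.11 for Bcl2l1, -0.20 to 0.27 for Bcl2l2, -0.16 to 1.003 for Bak1, -0.29 to 0.13 for Bcl2l11, -0.13 to 0.25 for Bad, -0.58 to 0.41 for Bbc3 and -1.12 to 0.074 for Birc6. The causes were not tested.

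All tested genes had 571 higher and 201 lower calls, and with single libraries left out 71 to 679 higher and 3 to 350 lower. Lower calls were 133 with no scaling, 342 with no filter and 701 with the GC and length offset, where 49.7% of calls were higher, against 74.0%. There were 363 higher and 80 lower at 5 CPM or more, 1255 and 926 by DESeq2, and 2326 and 1768 with quality weights, and 434 and 216 with young 4 and aged 2 both left out. No scaling moved the median log2 fold change by 0.16 and the GC and length offset by -0.10. Relative to that shift, Mcl1 was at -0.42 and -0.58. Under the offset, Bcl2l1 was at -0.28 and Bcl2l2 at -0.41 relative to it. Before adjustment, DESeq2 gave 1 member a p under 0.05 (Mcl1) and quality weights 1 (Bok), both lower. Leaving out aged 2 or young 5 gave 1 each (Mcl1) and leaving out young 4 gave 1 (Bok), all lower. Leaving out young 6 gave 1 (Bmf, higher), and leaving out both young 4 and aged 2 gave 1 (Mcl1, lower). The share of all tested genes with such a p was not computed for these settings.

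In the other lists, with no filter and with that offset, 1 IAP gene was lower and 1 regulator higher. Those settings called 4.45% and 10.6% of all tested genes. DESeq2 called 1 apoptosome gene and 1 IAP gene lower, and 2 regulators higher and 1 lower, among 16.3% of all tested genes. Limma-voom called 1 IAP gene lower, among 6.09%. With quality weights, lower calls were 3 in the apoptosome list, 1 IAP gene, 2 other family genes and 4 regulators, with 4 regulators higher. That made 10 lower and 4 higher of 51 tested genes, in a setting that called 30.5% of all tested genes. With young 4 and aged 2 both left out, 1 apoptosome gene was lower and 1 regulator higher, where 4.81% of all tested genes were called. The regulators had 0 to 1 higher calls with single libraries left out, where 0.539% to 7.47% of all tested genes were called. Shares from counts without length gave 0.24 points for Bcl2l11 and 0.51 for Bmf. Depth limits Bmf most among the members, with 7 to 42 counts per library.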
